A study of Mus musculus with 2 samples.

Results

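Cyclic AMP signalling machinery is described here through 35 genes that encode receptors, G protein alpha subunits, adenylyl cyclases, phosphodiesterases, subunits of protein kinase A, the Epac exchange factors and kinase anchors. They were taken by symbol from a fixed list, and all 35 of 35 were found among the 22441 genes of both count matrices. The cells came from fresh hearts of C57/B6 wild-type mice and of AC8 overexpressing mice on the same strain, the former described as littermate controls, with no treatment of either group. AC8 is adenylyl cyclase 8, encoded by Adcy8, and the series title places its overexpression in cardiomyocytes. The sources used here do not give the promoter that drives the transgene, nor the number, age or sex of the mice. Hearts of each genotype were pooled, and leukocytes (CD45+CD31-), mesenchymal cells (CD45-CD31-) and endothelial cells (CD45-CD31+) were sorted and mixed in equal numbers, so the gates were not designed to take cardiomyocytes. Each genotype gave 1 droplet library, and genotype and library preparation cannot be told apart.

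Cyclic AMP is a second messenger made from ATP by adenylyl cyclases, which receptors coupled to the stimulatory G protein Gs turn on and receptors coupled to Gi turn down. Phosphodiesterases break it down, and it acts through protein kinase A, whose regulatory subunits release the catalytic subunits when they bind it, and through the Epac proteins, which activate the small GTPase Rap. Anchoring proteins hold the kinase near particular substrates. In the heart the pathway is best known for the response of cardiomyocytes to adrenaline, while in endothelial cells it is known to tighten the barrier, in smooth muscle to relax, and in leukocytes to restrain activation.

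Levels are counts of unique molecular identifiers (UMIs, 1 per captured RNA molecule) summed over the cells of a class and given per 1000000 UMIs of that class (CPM), with exact 95% Poisson intervals in square brackets. With 1 library per genotype there is no replicate, no test and no p-value, and every interval covers counting error only. Where a count is 0, the level that 3 counts would give is stated as the most it allows. The wild-type matrix held 5800 cells and 9664932 UMIs and the AC8 matrix 4867 cells and 11076564 UMIs. After filtering, 3546 and 3578 cells were kept and fell into 24 clusters and 11 classes, each named "like" a cell type from its markers. Paired values are wild type first and AC8 second. Fibroblast-like cells numbered 1905 and 1543, endothelial-like cells 598 and 562, macrophage-like cells 603 and 759, and B cell-like cells 103 and 293. These 4 classes had at least 100 cells in each library and are compared between libraries. Mural-like cells (80 and 76, from vessel walls), Schwann-like (43 and 24), monocyte-like (31 and 65), dendritic-like (44 and 110), T cell-like (88 and 105) and NK cell-like cells (37 and 28) are described by level. Neutrophil-like cells (14 and 13) were too few for that. The barcode files hold running numbers, so barcodes shared between the libraries could not be counted.

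Adcy8 itself, the gene overexpressed, had no UMI among the kept cells of either library. Its position is chr15:64697084-64922296 on GRCm38, and a count of 0 allows up to 0.403 and 0.316 CPM over all kept cells. Among all deposited cells it had 0 UMIs in wild type and 1 in AC8. The sources used here do not say whether RNA of the transgene would be counted as Adcy8, and cardiomyocytes were not sorted, so the genotype labels are not checked by it. The summed level of cardiomyocyte markers was highest in mural-like cells, at 822 and 423 CPM, where 7 of 10 were detected in each library. Tnnt2 (324 and 93.3 CPM) and Pln (222 and 274 CPM) were the largest parts of that sum. Myh6, Actc1, Tnni3, Myl2, Myl3 and Mb were each higher in endothelial-like than in mural-like cells of both libraries. Pln and Ryr2 were lower there in both libraries, and Tnnt2 and Ttn only in wild type. All 10 were detected in endothelial-like cells, summing to 448 and 413 CPM, and in fibroblast-like cells, summing to 22.1 and 16.3 CPM.

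Levels of the members differed between the 4 larger classes, and most members peaked in the same class in both libraries. Among these classes, 27 of 35 members were highest in the same class in both libraries: 12 peaked in the endothelial-like, 8 in the fibroblast-like, 4 in the macrophage-like and 3 in the B cell-like class. For 9 of them (Adcy4, Adcy5, Pde1a, Pde3a, Pde7a, Pde8a, Rapgef3, Adrb1 and Adora2a) the highest class was at least 2-fold above the second in both libraries. Over all 10 described classes, 19 of 35 members had the same highest class in both libraries, and for 7 of these the intervals of the highest and second class were apart in both. Some of this separation was built in, since 12 of the 35 members were among the 2000 variable genes that defined the clusters. Adcy4, Adcy5, Pde3a, Pde7a, Rapgef3 and Adora2a were among those 12. The same counts were not taken over all genes, so they do not set these members apart from other genes.

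**Figure D1:**
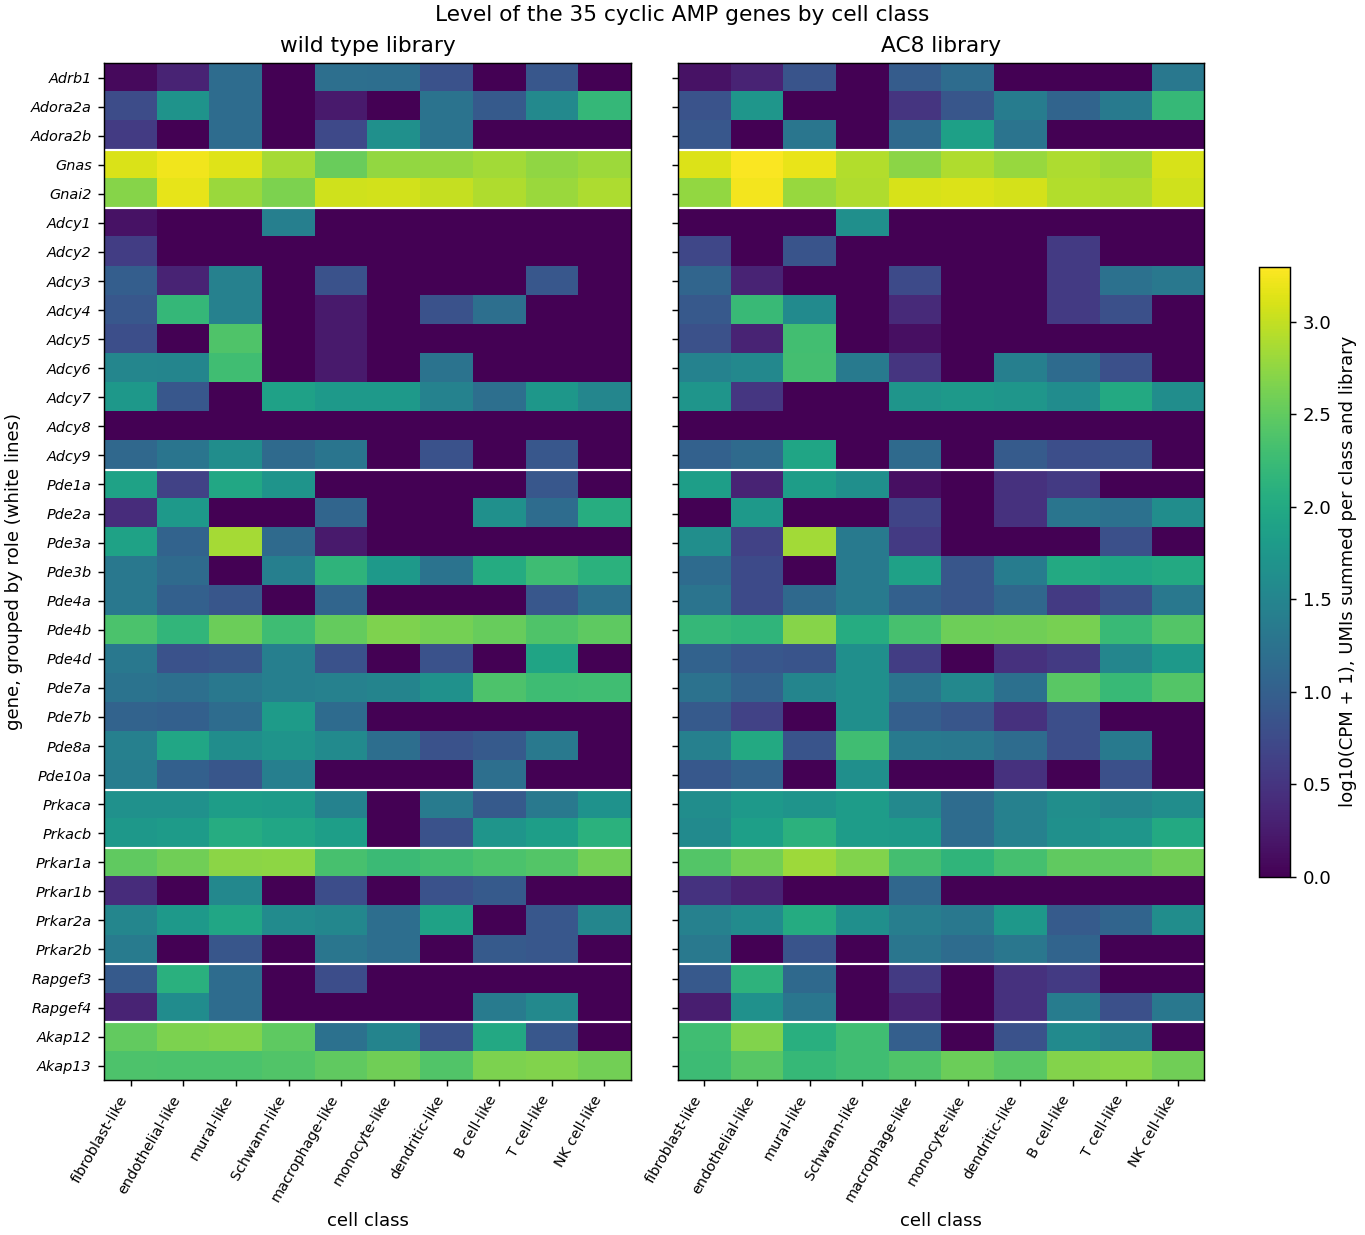
Level of each member (rows, grouped by role from receptors at the top to anchors at the bottom) in 10 cell classes (columns), wild-type library on the left and AC8 library on the right, as log10(CPM + 1) of UMIs summed per class. Adcy4 and Rapgef3 stand out in endothelial-like cells, Adcy5, Adcy6 and Pde3a in mural-like cells and Pde7a in lymphocytes, in both libraries. Adcy8 is at 0 throughout.

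The 3 receptors among the members were sparse and divided among classes. Adora2a, a Gs-coupled adenosine receptor of high affinity, was at 159 [76.1 to 292] and 161 [69.4 to 317] CPM in NK cell-like cells, from 10 and 8 UMIs. Endothelial-like cells followed with 48.2 [34.7 to 65.2] and 52.8 [38.7 to 70.5] CPM. Fibroblast-like cells had 4.83 and 5.89 CPM of it and macrophage-like cells 0.726 and 2.22, so the NK cell-like and endothelial-like levels stood above both in each library. Adora2b, its relative of lower affinity, was highest in monocyte-like cells, at 44.2 and 74.2 CPM from 3 and 11 UMIs, and had no UMI in endothelial-like cells, which allows up to 3.44 CPM there in each library. Adrb1, the beta-1 adrenergic receptor through which cardiomyocytes mainly sense noradrenaline, was close to absent from these sorted cells. Macrophage-like cells had most of its UMIs, 21 and 22, which is 15.2 [9.43 to 23.3] and 8.15 [5.11 to 12.3] CPM, while fibroblast-like cells had 1 and 2 UMIs and endothelial-like cells 1 and 1. Some smaller classes had levels near or above these from very few UMIs. Monocyte-like cells had 14.7 and 13.5 CPM from 1 and 2 UMIs, and mural-like cells 13.5 and 6.22 CPM from 2 and 1. NK cell-like cells had 0 and 1 UMIs, the latter at 20.1 CPM.

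The 2 G protein alpha subunits were the 2 most abundant members in each of the 4 larger classes of both libraries. Gnas, which encodes the stimulatory subunit, was highest in endothelial-like cells (1713 and 1926 CPM), followed by mural-like (1375 and 1549) and fibroblast-like cells (1283 and 1348). It was lowest in macrophage-like cells, at 347 [316 to 379] and 529 [502 to 558] CPM. Gnas is an imprinted locus with several promoters whose transcripts share their later exons, and counts by symbol cannot separate them. Its exons also overlap Gm20721 on the opposite strand, which the matrices list separately. Gnai2, an inhibitory subunit, reached 1512 and 1738 CPM in the endothelial-like class, 1158 and 1262 CPM in the macrophage-like class and 499 and 582 CPM in the fibroblast-like class. The balance between the 2 genes therefore differed by class: fibroblast-like cells had more Gnas than Gnai2 UMIs (5583 against 2171 and 5948 against 2569), and macrophage-like cells had more Gnai2 than Gnas (1596 against 478 and 3407 against 1429).

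The 8 other cyclases were split by cell type. Adcy4 (chr14:55769057-55784095) was the endothelial isoform, at 157 [132 to 186] and 171 [145 to 201] CPM in endothelial-like cells against 6.90 and 7.25 CPM in fibroblast-like cells. It made up 73.3% (exact binomial interval 66.3 to 79.5) and 77.2% (70.6 to 82.9) of all cyclase molecules of that class. With every cell thinned to 1000 UMIs, 15.1% and 16.0% of endothelial-like cells had an Adcy4 UMI (20.1% and 21.5% without thinning), against 0.892% and 0.907% of fibroblast-like cells (1.52% and 2.07% without thinning). Median depths before thinning were 1298.5 and 1368.5 UMIs in endothelial-like cells and 2157 and 2735 in fibroblast-like cells, so the class with more UMIs per cell had the smaller share. Endothelial markers summed to 224 and 161 CPM in fibroblast-like cells against 25735 and 20478 CPM in endothelial-like cells, and whether free RNA accounts for the fibroblast-like share was not tested.

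Mural-like cells had the highest cyclase total of the described classes, at 533 and 535 CPM over the 9 cyclase genes, against 215 and 222 CPM in endothelial-like cells, 124 and 116 CPM in fibroblast-like cells and 85.6 and 73.7 CPM in macrophage-like cells. It was carried by Adcy5 and Adcy6, the pair of cyclases that calcium inhibits and that are also the main ones of the cardiomyocyte. Adcy5 (chr16:35154877-35305738) was at 243 [170 to 336] and 199 [136 to 281] CPM, and Adcy6 (chr15:98589973-98610076) at 196 [131 to 281] and 205 [141 to 288] CPM. The mural-like cluster led by Acta2, Myh11 and Tagln, genes of smooth muscle, had Adcy5 at 287 and 203 CPM and Adcy6 at 143 and 176 CPM. In the cluster led by Rgs5, Kcnj8 and Vtn, genes of pericytes, the order was the other way round, with Adcy6 at 320 and 552 CPM and Adcy5 at 137 and 158 CPM, from only 32 and 9 cells. In the Acta2 cluster the cardiomyocyte marker list summed to 1147 and 446 CPM, from 7 and 6 of 10 markers. Over the whole mural-like class, Tnnt2 (48 and 15 UMIs) and Pln (33 and 44) had the most UMIs of that list, and Myh6 had 0 in each library. The part of cardiomyocyte RNA in these levels and in the Pde3a level below was not tested. These 2 clusters rest on 15 to 30 and on 2 to 14 UMIs of each gene per library.

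Adcy7, a cyclase widespread in blood cells, led in macrophage-like, monocyte-like, dendritic-like, T cell-like and fibroblast-like cells. Macrophage-like cells had 59.5 and 52.2 CPM of it, or 69.5% (60.3 to 77.6) and 70.9% (64.0 to 77.1) of their cyclase molecules, with Adcy9 next at 21.2% and 17.6%. Fibroblast-like cells had 56.3 and 51.0 CPM, or 45.3% (41.0 to 49.6) and 43.9% (39.5 to 48.3), with Adcy6 at 25.5% and 23.8%. That class held UMIs of 8 and 7 of the 9 cyclases. Divided by median annotated transcript length (2159.5 bases for Adcy6, 5937 for Adcy7), Adcy6 rather than Adcy7 led in fibroblast-like cells of both libraries. That order rests on the lengths used, which need not be those of the transcripts in these cells. By molecules, as UMIs are defined here, Adcy7 led. T cell-like cells had 8 of 10 and 19 of 25 cyclase UMIs from Adcy7. Of the sparse isoforms, Adcy1 had 2 and 2 UMIs in the small Schwann-like class and 2 and 0 in fibroblast-like cells, Adcy2 had 13 and 18 UMIs in fibroblast-like cells, and Adcy3 had 38 and 48 there.

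Pde4b (chr4:102087543-102607259), the cyclic AMP-specific enzyme known from leukocytes, was the leading member in fibroblast-like, endothelial-like, macrophage-like and B cell-like cells of both libraries. Its share of phosphodiesterase molecules was 44.0% and 42.9% for fibroblast-like, 39.8% and 40.7% for endothelial-like, 57.7% and 60.5% for macrophage-like and 45.0% and 50.2% for B cell-like cells. Dendritic-like cells had the largest share among the classes with over 80 phosphodiesterase UMIs in each library, 84.5% (75.0 to 91.5) and 83.6% (78.2 to 88.1). In mural-like cells another gene led: Pde3a made up 56.7% (49.3 to 63.9) and 52.4% (45.4 to 59.2) of their phosphodiesterase molecules.

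**Figure D2:**
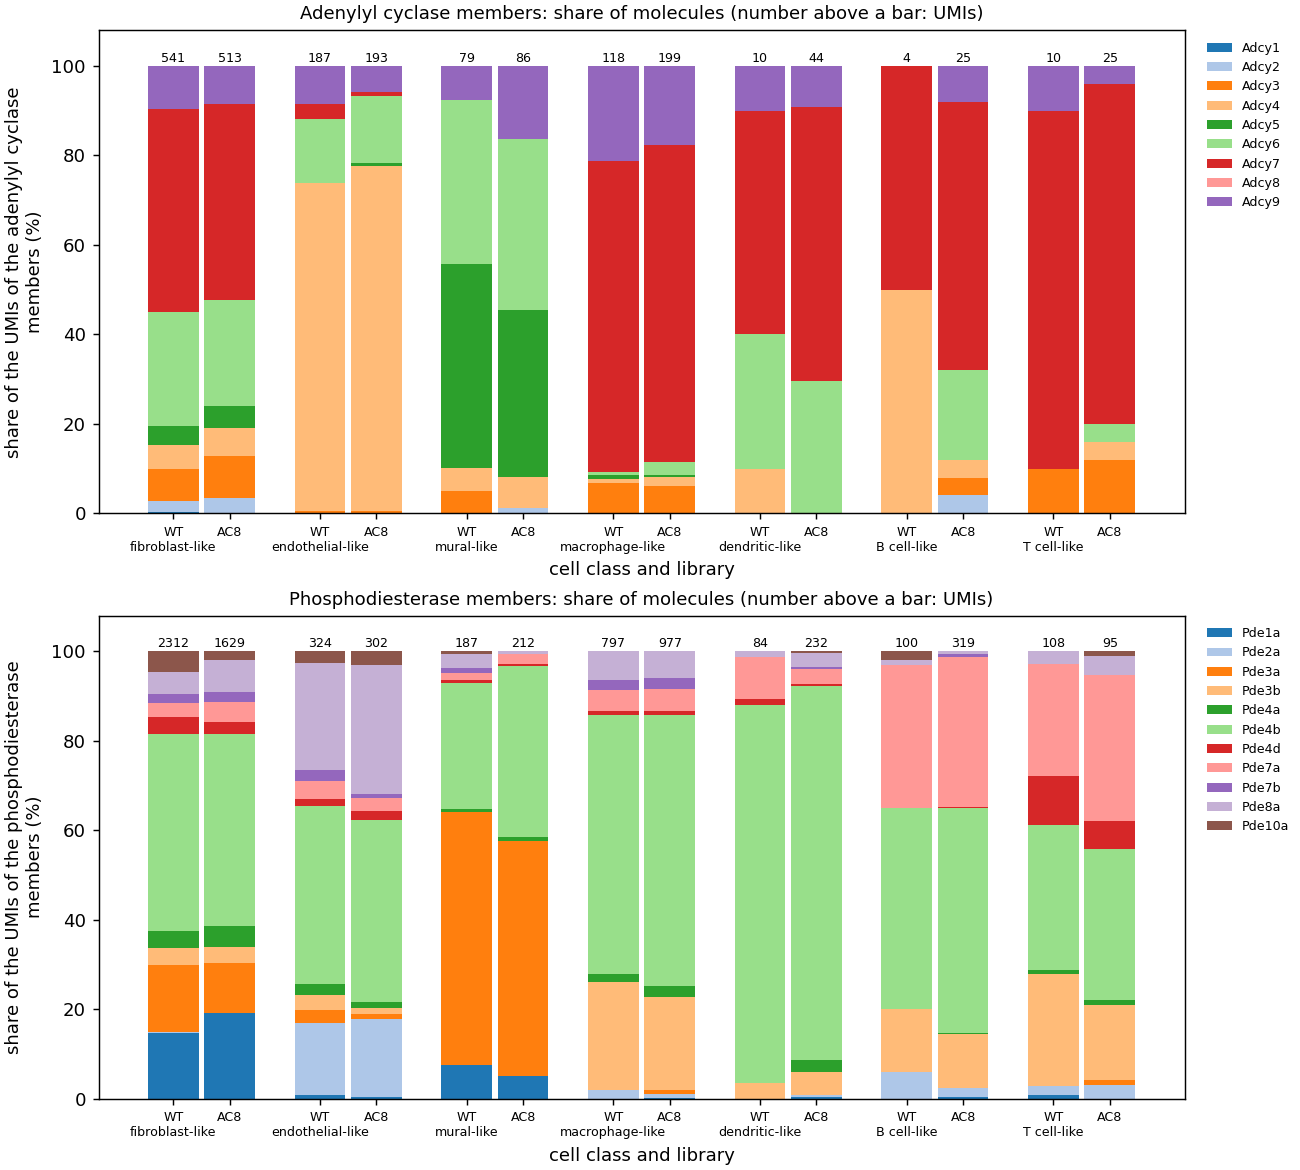
Share of the UMIs of the 9 cyclases (top) and of the 11 phosphodiesterases (bottom) taken by each gene, in 7 cell classes, with a wild-type and an AC8 bar for each class and the number of UMIs above each bar. Adcy4 fills most of the endothelial-like bars, Adcy5 and Adcy6 the mural-like bars and Adcy7 the macrophage-like bars, while Pde4b is the widest band below except in mural-like cells, where Pde3a is. Bars over fewer than 30 UMIs are imprecise.

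Pde3a (chr6:141249269-141507448), the cyclic GMP-inhibited enzyme of smooth muscle, platelets and cardiomyocytes, was at 715 [585 to 864] and 691 [568 to 832] CPM in mural-like cells. Fibroblast-like cells followed with 79.8 [71.6 to 88.6] and 41.2 [35.5 to 47.7] CPM. Endothelial-like cells had 10.3 and 3.44 CPM, and macrophage-like cells 0.726 and 2.59 CPM. Its relative Pde3b (chr7:114415281-114539251), best known from adipocytes, was distributed the other way. Macrophage-like cells had 139 and 75.6 CPM and B cell-like cells 105 and 99.6 CPM. No UMI of it was seen in the mural-like class, where a count of 0 allows up to 20.2 and 18.7 CPM. T cell-like cells had 188 and 85.0 CPM of it.

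Pde7a, a cyclic AMP-specific enzyme found in lymphocytes, was the marker of the lymphoid classes within this set. B cell-like cells had 239 [164 to 338] and 280 [230 to 339] CPM, T cell-like cells 188 and 165 CPM and NK cell-like cells 191 and 261 CPM. Every other class with at least 100 cells in each library lay between 10.3 and 26.8 CPM. After thinning, 22.3% and 25.3% of B cell-like cells had a Pde7a UMI (27.2% and 28.0% before), against 1.57% and 1.88% of fibroblast-like cells (3.67% and 4.60% before). B cell-like medians were 1211 and 1169 UMIs.

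The remaining phosphodiesterases were lower. Pde8a, a high-affinity cyclic AMP enzyme that standard inhibitors do not block, had 89.5 and 99.9 CPM in endothelial-like cells, which made 24.1% and 28.8% of their phosphodiesterase molecules. Pde2a, which cyclic GMP stimulates, had 59.7 and 60.9 CPM there, but its exons overlap a predicted gene on the same strand that the matrices list separately. Pde1a, a calcium and calmodulin-dependent enzyme, was shared by fibroblast-like (77.9 and 70.5 CPM) and mural-like cells (94.4 and 68.4 CPM) and near 0 in macrophage-like cells (0 and 1 UMIs). Pde10a was at 24.4 and 7.02 CPM in fibroblast-like cells and had no UMI in macrophage-like cells. In fibroblast-like cells Pde4d was at 20.2 and 9.97 CPM and Pde7b at 10.1 and 7.70 CPM, and Pde4a had 87 and 78 UMIs.

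Protein kinase A was less divided. Prkar1a (chr11:109649405-109669656), the type I alpha regulatory subunit and the one whose loss underlies Carney complex, supplied between 70.0% and 96.7% of regulatory subunit molecules in all 10 described classes of both libraries. Endothelial-like cells had 385 and 393 CPM of it, fibroblast-like cells 309 and 257, macrophage-like cells 218 and 205, and B cell-like cells 232 and 307. Prkar2a, the type II alpha subunit, came second in the 4 larger classes but for B cell-like cells, with 58.5 and 37.9 CPM for endothelial-like and 32.2 and 27.0 CPM in fibroblast-like cells. Prkar2b was at 22.5 and 20.8 CPM in fibroblast-like cells and had 0 UMIs in endothelial-like cells of both libraries. Prkar1b, a subunit of neurons, had 7 and 9 UMIs in fibroblast-like cells and 7 and 31 in macrophage-like cells. Of the catalytic subunits Prkaca and Prkacb, Prkacb held 55.2% (50.4 to 59.9) and 48.2% (42.8 to 53.7) of the pair in fibroblast-like cells and 71.3% (62.9 to 78.7) and 64.3% (58.1 to 70.1) in macrophage-like cells. Per median annotated transcript length (1837.5 bases for Prkaca, 4000 for Prkacb) Prkaca led instead in some classes. These were endothelial-like cells of both libraries, wild-type fibroblast-like cells, and AC8 macrophage-like and B cell-like cells.

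Kinase A also acts on transcription through CREB, a factor that binds the cyclic AMP response element TGACGTCA, a palindrome, so the promoter among the members that holds it is shown beside one that holds the shorter element TGACGT. RefSeq promoter windows on GRCm38.p6, which run from 250 bases before to 50 bases after an annotated start, matched 27 of the 35 members, with 59 windows in all. The full element was found in 588 of 32851 windows (1.79%) and in 2 of the 59 member windows, which belong to Prkar1a alone. Those 2 windows overlap and hold the same element, which begins 49 bases before 1 annotated start and 38 bases after another. The shorter element was searched on both strands and counted also inside the full element. It was in 7.51% of all windows and in 6 of the 59 member windows, which belong to 5 members (Adcy9, Pde4a, Pde4b, Prkar1a and Rapgef3). Those 6 include the 2 overlapping windows of Prkar1a. The 30-base stretches below lie on the plus strand at chr11:109650889-109650918 for Prkar1a, with the element beginning 49 bases before a start, and at chr4:102421508-102421537 for Pde4b, with the shorter element beginning 35 bases before a start. Capitals mark the element, which in Pde4b is read on the opposite strand.
Prkar1a: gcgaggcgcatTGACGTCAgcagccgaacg
Pde4b: tgatttggctgcACGTCAattttctcatct
A match describes letters in a window and does not show that a factor binds there.

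Of the 2 Epac genes, Rapgef3 had most of its level in endothelial-like cells. Rapgef3, which encodes Epac1, was at 125 [103 to 151] and 137 [113 to 164] CPM in endothelial-like cells against 7.58 and 7.25 CPM in fibroblast-like and 5.08 and 2.59 CPM in macrophage-like cells. Rapgef4, which encodes Epac2, was at 39.0 and 45.9 CPM in endothelial-like cells, with 22.4 and 23.6 CPM in B cell-like cells from 3 and 9 UMIs and 34.7 and 5.31 CPM in T cell-like cells from 5 and 1. Exons of both genes overlap annotated antisense transcripts, and no source used here says whether the counting used strand.

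Of the anchors, Akap13 varied less between classes than Akap12, from 234 to 449 CPM in the 4 larger classes of wild type and from 182 to 482 CPM in AC8, with B cell-like cells highest in both. Akap12 (chr10:4266380-4359470), also called gravin, which binds the kinase and the beta-adrenergic receptor, was highest among the 4 larger classes in endothelial-like cells. Endothelial-like cells had 451 [408 to 498] and 478 [433 to 526] CPM, fibroblast-like cells 317 and 191 CPM and macrophage-like cells 16.0 and 8.89 CPM. B cell-like cells had 97.2 and 36.7 CPM from 13 and 14 UMIs, beside endothelial markers at a summed 1084 and 270 CPM (10 and 9 of 10), whose part in this was not tested.

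Between the libraries, the phosphodiesterase sum was lower in AC8 in fibroblast-like and macrophage-like cells. Summed over the 11 phosphodiesterases, fibroblast-like cells were at 531 and 369 CPM, a ratio of 0.695 (0.652 to 0.740), and macrophage-like cells at 578 and 362 CPM, a ratio of 0.626 (0.569 to 0.688). Endothelial-like cells were at 372 and 347 CPM (0.932, 0.794 to 1.09) and B cell-like cells at 748 and 836 CPM (1.12, 0.891 to 1.41), with intervals that include 1. The 9 cyclases summed to ratios of 0.935 (0.827 to 1.06) in fibroblast-like, 1.03 (0.840 to 1.27) in endothelial-like and 0.861 (0.682 to 1.09) in macrophage-like cells, with intervals that include 1. B cell-like cells had only 4 and 25 cyclase UMIs, 29.9 and 65.5 CPM, a ratio of 2.19 (0.757 to 8.67). No measured cyclase was 1.5-fold apart in any of the 4 classes, though single clusters differed. Adcy7 was at 0.522 (0.293 to 0.912) in the macrophage-like cluster of 240 and 218 cells led by C1qa, C1qc and C1qb. It was at 1.33 (0.862 to 2.08) in the one led by Cbr2, F13a1 and C1qa. In the fibroblast-like cluster led by Gsn, Fbln1 and Dcn it was at 3.11 (1.22 to 9.39), from 6 and 22 UMIs. Pde4b had the largest part of the phosphodiesterase sums in these 4 classes.

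A gene was counted as apart where the AC8 to wild-type ratio of CPM was at least 1.5 or at most its inverse, with at least 30 UMIs summed over both libraries in the class. In fibroblast-like cells 29 of the 35 members had enough UMIs. Of these, 1 was at least 1.5-fold higher, where 4.5% of 10623 genes were, and 5 were at least 1.5-fold lower, where 11.1% of genes were. In macrophage-like cells 20 had enough UMIs, with 3 higher against 11.6% of 8540 genes and 6 lower against 14.2%. In endothelial-like cells 16 were measured, with 0 higher against 8.5% of 7152 genes and 1 lower against 9.87%. In B cell-like cells 7 were measured and 0 were apart in either direction, where 11.9% and 13.1% of 2771 genes were. The median log2 ratio of the measured members, taken with 10 CPM added to each level, was -0.13 against -0.05 for all measured genes in fibroblast-like cells, -0.22 against -0.03 in macrophage-like cells, 0.12 against -0.01 in endothelial-like cells and 0.15 against -0.02 in B cell-like cells.

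**Figure D3:**
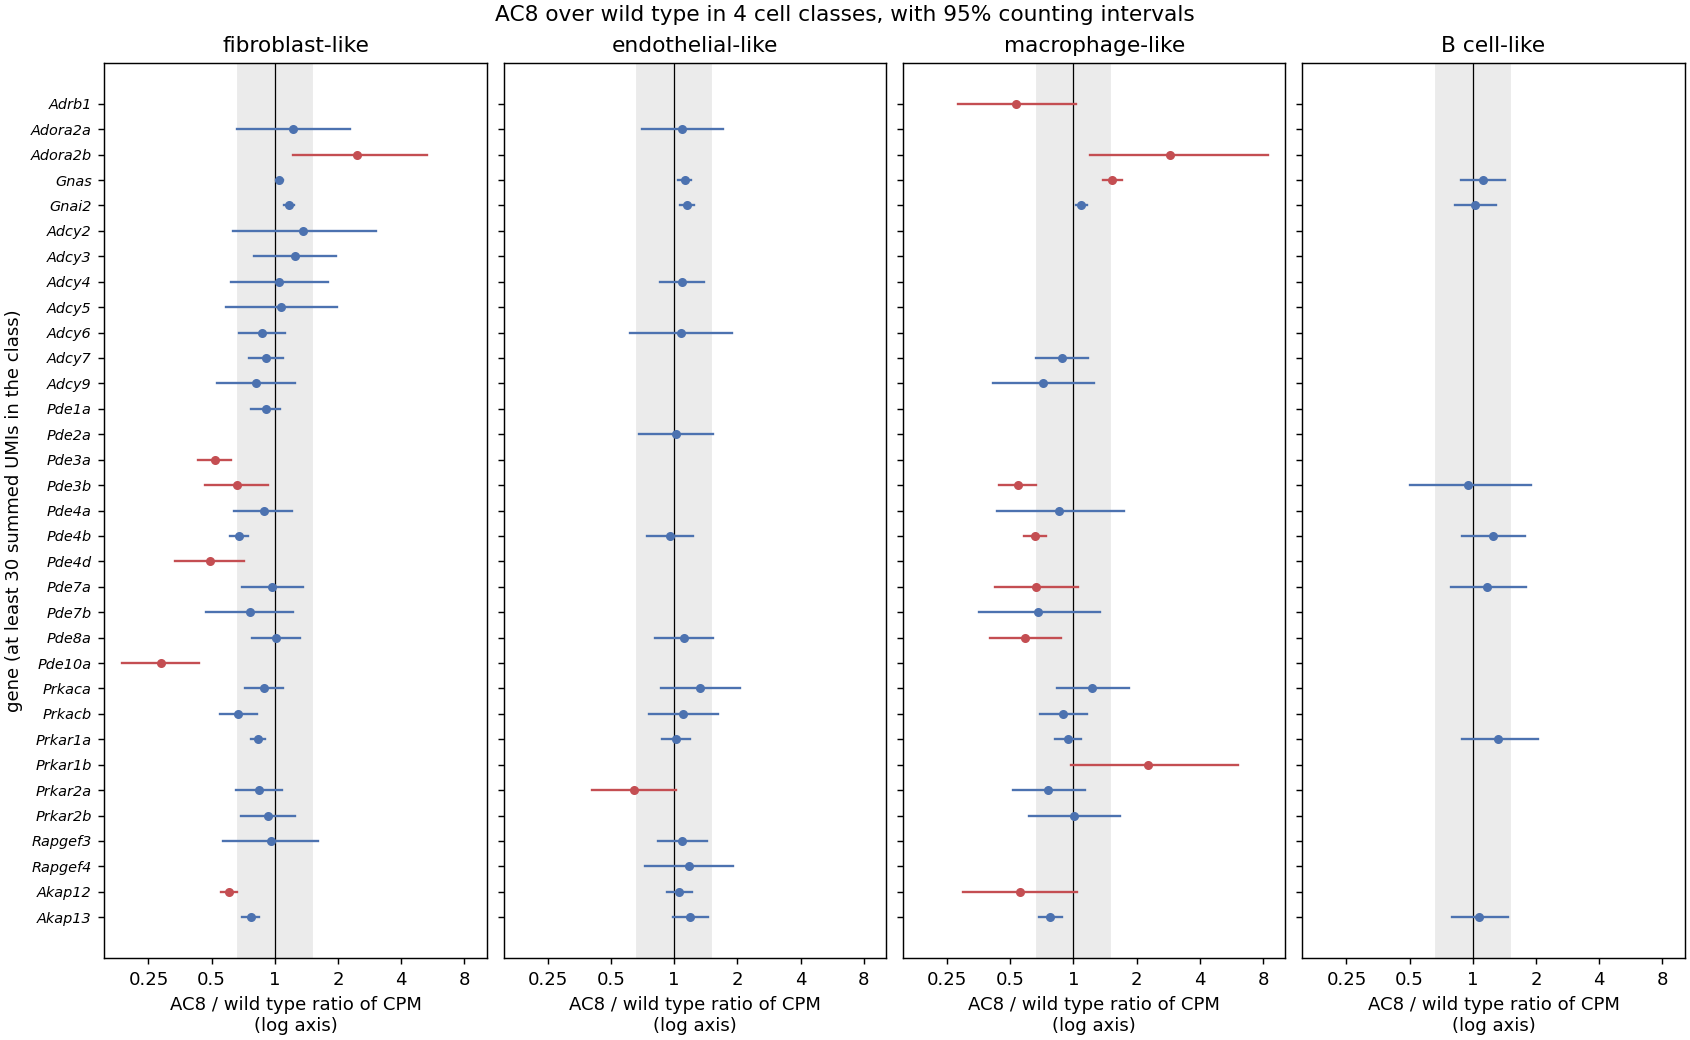
Ratio of CPM in AC8 over wild type (log axis) for each member with at least 30 summed UMIs, in 4 cell classes, with exact 95% counting intervals as lines and the band within 1.5-fold in grey. Red marks members outside the band: 6 in fibroblast-like, 1 in endothelial-like, 9 in macrophage-like and 0 in B cell-like cells.

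In fibroblast-like cells 4 of the 5 lower members were phosphodiesterases. Pde10a (chr17:8525372-8986648), which hydrolyses both cyclic nucleotides and is best known from the striatum, had 106 and 31 UMIs, a level of 24.4 against 7.02 CPM and a ratio of 0.288 (0.187 to 0.434). Pde4d, a partner of adrenergic receptors and of the ryanodine receptor in cardiomyocytes, had 88 and 44 UMIs and a ratio of 0.493 (0.335 to 0.716). Pde3a had 347 and 182 UMIs and a ratio of 0.517 (0.430 to 0.620). Pde3b had 88 and 59 UMIs and a ratio of 0.661 (0.467 to 0.930), which came to 0.917 with each cell thinned to 1000 UMIs. The fifth was Akap12, with 1378 and 843 UMIs, or 317 and 191 CPM, and a ratio of 0.603 (0.553 to 0.658). All 5 counting intervals lie below 1. Thinned, Akap12 was at 0.676, just inside the 1.5-fold band, and Pde10a at 0.466 and Pde4d at 0.315 moved by over 1.5 times.

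Just inside the band were Prkacb at 0.669 (0.546 to 0.819) and Pde4b at 0.678 (0.614 to 0.747), which also have intervals below 1, so the line between them and the 5 is one of convention. Adora2b was the only higher member, at 2.76 and 6.80 CPM from 12 and 30 UMIs, a ratio of 2.46 (1.23 to 5.29), or 1.55 over cells of at least 2000 UMIs and 1000 genes, and it passed the minimum of 30 mainly through the library in which it is high. Mural markers, from the class with most Pde3a, were detected 11 of 11 in fibroblast-like cells of both libraries, at a summed 255 and 236 CPM. Endothelial markers, from the larger class with most Akap12, were 10 of 10 in each at 224 and 161 CPM, and the part of either list in these ratios was not tested. Of 30 genes that rise when tissue is dissociated, 7 were at least 1.5-fold lower and 0 higher in the same cells, with a median log2 ratio of -0.28, and the part of this in the members' differences was not tested.

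The fibroblast-like clusters did not all follow the class. Pde3a was lower in the clusters led by Clec3b, Dcn and Htra3 (64.0 and 39.4 CPM, ratio 0.616), by Gsn, Fbln1 and Mfap4 (62.1 and 29.6, 0.476), by Gsn, Fbln1 and Dcn (166 and 73.2, 0.440) and by Clec3b, Mfap5 and Pi16 (68.0 and 24.9, 0.366). It was level in the cluster led by Gfpt2, Vcan and Tnxb, at 170 and 174 CPM (1.03, 0.535 to 1.92). Pde4b in that cluster was higher in AC8, at 279 and 513 CPM from 46 and 53 UMIs, a ratio of 1.84 (1.22 to 2.79), while in the clusters led by Gsn, Fbln1 and Mfap4 and by Clec3b, Mfap5 and Pi16 it was at 0.525 (0.434 to 0.633) and 0.498 (0.342 to 0.714). The Gfpt2 cluster had 92 and 63 cells. Akap12 was lower in each of the same 5 clusters, with ratios from 0.528 to 0.833, and in the Gfpt2 cluster its interval (0.575 to 1.19) includes 1.

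**Figure D4:**
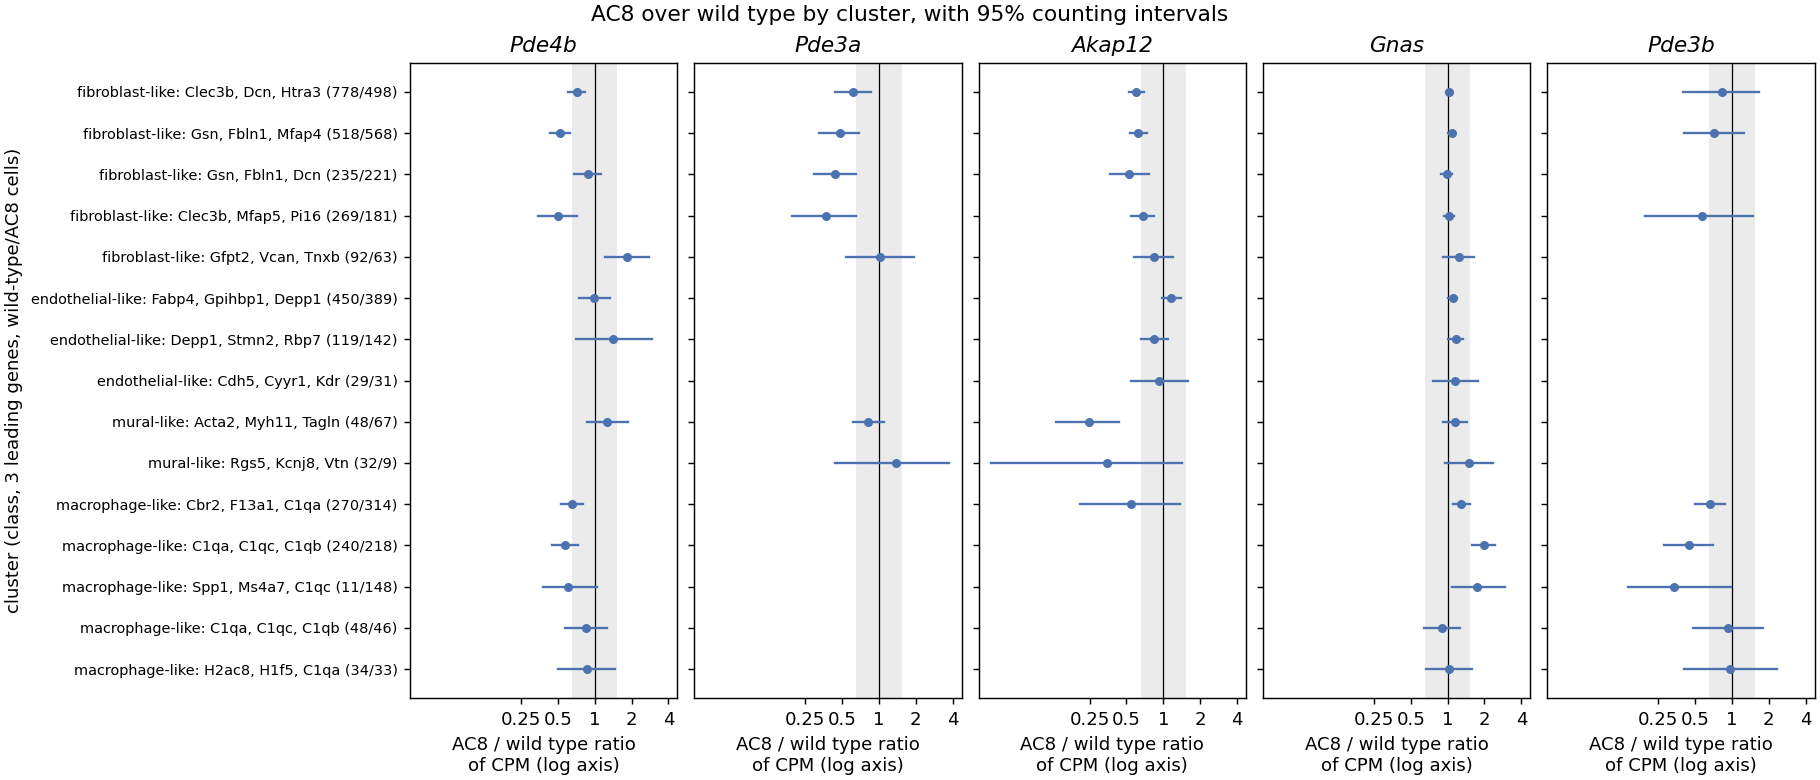
Ratio of CPM in AC8 over wild type (log axis) for Pde4b, Pde3a, Akap12, Gnas and Pde3b by cluster, shown where a gene had at least 20 summed UMIs, with exact 95% counting intervals as lines and the band within 1.5-fold in grey; numbers after the leading genes are wild-type and AC8 cells. Pde4b lies at or below 1 in most fibroblast-like clusters and at 1.84 in the cluster led by Gfpt2, and Akap12 is lowest, at 0.245, in the mural-like cluster led by Acta2.

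In macrophage-like cells Gnas was higher in AC8, and Pde3b and Pde4b were lower. Gnas had 478 and 1429 UMIs, or 347 and 529 CPM, a ratio of 1.53 (1.38 to 1.70). The share of cells with a Gnas UMI at 1000 UMIs per cell was 24.0% (20.7 to 27.7) and 39.8% (36.3 to 43.4), from 46.4% and 72.2% before thinning at median depths of 1992 and 3086 UMIs. Pde3b, from 192 and 204 UMIs, had 139 and 75.6 CPM and a ratio of 0.543 (0.443 to 0.664), and it stayed between 0.495 and 0.649 under every alternative tried. Pde4b had 334 and 219 CPM, a ratio of 0.656 (0.580 to 0.743) that ranged from 0.606 to 0.700 over the alternatives. Pde8a had 37.0 and 21.9 CPM, a ratio of 0.591 (0.399 to 0.877), which came to 0.946 after thinning.

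The other 5 members apart in macrophage-like cells rest on fewer UMIs. Pde7a (ratio 0.662, 0.423 to 1.05), Adrb1 (0.535, 0.281 to 1.02) and Akap12 (0.557, 0.299 to 1.04) were lower with intervals that include 1, and after thinning they came to 1.27, 0.722 and 0.289. Prkar1b, at 5.08 and 11.5 CPM, was higher at 2.26 (0.977 to 6.08), or 1.11 after thinning and 3.91 over cells of at least 2000 UMIs and 1000 genes. Adora2b, at 4.35 and 12.6 CPM, was higher at 2.89 (1.2 to 8.43), or 1.83 over those deeper cells. Its 6 and 34 UMIs, and the 7 and 31 of Prkar1b, reached the minimum of 30 through the AC8 library. Pde7b (0.681) and Adcy9 (0.715) were just inside the band. Endothelial markers in macrophage-like cells were 10 of 10 in both libraries at 345 and 283 CPM. Other lists moved more there: red cell markers (4 and 4 of 5) were at 181 and 5.19 CPM, neutrophil markers (8 and 8 of 8) at 79.8 and 32.6, NK cell markers (7 and 6 of 8) at 76.9 and 24.8 and monocyte markers (8 and 8 of 8) at 107 and 193. T cell markers (9 and 9 of 9) were at 136 and 96.0 CPM. The dissociation genes were lower there too, 8 of 30 with 0 higher and a median log2 ratio of -0.28, and 7 of 13 mitochondrially encoded genes were lower, and the part of all these lists in the differences was not tested.

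Some of these values changed with the weight given to clusters. The macrophage-like cluster led by Spp1, Ms4a7 and C1qc held 11 wild-type and 148 AC8 cells, and 17 of the 34 AC8 UMIs of Adora2b and 16 of the 31 of Prkar1b were in it. Of the wild-type UMIs, 3 of the 6 of Adora2b and 0 of the 7 of Prkar1b were in it. Adora2b was at 61.8 and 20.3 CPM in that cluster, a ratio of 0.329 (0.0951 to 1.75). With the clusters given the same weights in both libraries, Adora2b came to a ratio of 1.10, which rests in part on those 3 wild-type UMIs. Without that cluster Adora2b was at 4.05, Adrb1 at 0.680, Pde7a at 0.753, Pde8a at 0.744, Prkar1b at 1.53 and Gnas at 1.38, so 4 of these 6 were no longer 1.5-fold apart. Gnas lay between 1.38 and 1.70 over all alternatives, close to the 1.5-fold line. By cluster, Gnas was at 1.29 (1.10 to 1.52) in cells led by Cbr2, F13a1 and C1qa and at 1.97 (1.59 to 2.45) in the larger of the clusters led by C1qa, C1qc and C1qb, which had 240 and 218 cells. It was at 0.903 (0.646 to 1.26) in the smaller of them, with 48 and 46 cells. Pde3b was at 0.660 (0.495 to 0.879) and 0.449 (0.281 to 0.706) in the first 2 of these and at 0.929 (0.484 to 1.79) in the smaller. That smaller cluster is among the 2 clusters that carry markers of another lineage, so its ratios may not be those of macrophage-like cells alone.

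In endothelial-like cells 1 of 16 measured members was 1.5-fold apart, where 8.5% of all genes were higher and 9.87% lower. In B cell-like cells 0 of 7 were apart, where 11.9% of all genes were higher and 13.1% lower, and 7 members are too few to read. In endothelial-like cells 14 of 16 measured members had a ratio above 1, all within 1.5-fold, among them Adcy4 at 1.09 (0.857 to 1.38), Rapgef3 at 1.09 (0.835 to 1.43), Pde2a at 1.02 (0.682 to 1.52) and Akap12 at 1.06 (0.92 to 1.22). Gnas at 1.12 (1.05 to 1.21) and Gnai2 at 1.15 (1.07 to 1.24) had intervals above 1. How many of all genes had a ratio above 1 was not counted. The median log2 ratio was 0.12 for the measured members and -0.01 for all measured genes. The single lower member was Prkar2a, at 58.5 and 37.9 CPM from 51 and 33 UMIs, with an interval (0.405 to 1.02) that includes 1; over cells of at least 2000 UMIs the ratio was 0.325, and with each cell weighted equally 0.728. In B cell-like cells Pde4b was at 1.25 (0.891 to 1.78), Pde7a at 1.17 (0.784 to 1.80), Prkar1a at 1.32 (0.884 to 2.04) and Akap13 at 1.08 (0.8 to 1.46), from 31 to 60 wild-type UMIs each. The dissociation genes leaned upward in these 2 classes, 5 of 28 higher and 0 lower in endothelial-like cells and 6 of 24 higher and 1 lower in B cell-like cells, with median log2 ratios of 0.17 and 0.25. Red cell markers differed more, at a summed 2650 and 725 CPM in endothelial-like cells.

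Akap12 was also lower in AC8 in mural-like cells, a class under the 100-cell minimum. Its level there was 465 [362 to 589] and 118 [71.2 to 185] CPM, from 69 and 19 UMIs, and the intervals did not meet. In the cluster led by Acta2, Myh11 and Tagln it was at 468 and 115 CPM, a ratio of 0.245 (0.132 to 0.433). Endothelial markers, from a class in which Akap12 is abundant, moved the same way in that cluster: 10 of 10 were detected in both libraries, at a summed 4933 and 1925 CPM, and their part in the Akap12 value was not tested. Endothelial-like cells themselves had 25735 and 20478 CPM of those markers, and 451 and 478 CPM of Akap12. In contrast Pde3a was at 870 and 709 CPM (0.815, 0.610 to 1.09) and Pde4b at 421 and 534 CPM (1.27, 0.867 to 1.88) in the same cluster.

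The rest of the pathway was read from 10 lists of 159 genes, of which 154 are in the matrices. They are read against the same shares of all genes, higher and then lower. These were 4.5% and 11.1% in fibroblast-like, 11.6% and 14.2% in macrophage-like, 8.5% and 9.87% in endothelial-like and 11.9% and 13.1% in B cell-like cells. In fibroblast-like cells 95 of them were measured, with 2 at least 1.5-fold higher and 15 lower. In macrophage-like cells 78 were measured, with 3 higher and 16 lower, in endothelial-like cells 72 with 5 higher and 10 lower, and in B cell-like cells 33 with 5 higher and 2 lower. Of the other kinase anchors, 6 of 15 were lower in fibroblast-like, 4 of 11 in endothelial-like and 4 of 9 in macrophage-like cells, and 0 higher in each. The shares of all genes lower there were 11.1%, 9.87% and 14.2%. Akap9, a large anchor of the Golgi and centrosome, had 105 and 69.6 CPM in fibroblast-like cells, a ratio of 0.659, and at 148 and 97.6 CPM in endothelial-like cells, also 0.659.

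Among the CREB family and its coactivators, 4 of 10 measured genes were lower in macrophage-like cells, where 14.2% of all genes were. They were Crem at 58.0 and 28.9 CPM, Creb5 at 201 and 126 CPM, Crtc3 at 60.2 and 35.2 CPM and the acetyltransferase Crebbp at 107 and 65.6 CPM. In fibroblast-like cells 1 of 11 was lower, the acetyltransferase Ep300 (53.3 and 29.9 CPM), against 11.1% of all genes. Sik1 and Sik2, kinases that hold back the CREB coactivators and that kinase A inhibits, were lower in fibroblast-like cells at 55.9 and 19.9 CPM (ratio 0.357) and at 44.1 and 22.9 CPM (0.519). Of the Gs-coupled receptors, Calcrl, the shared subunit of the receptors for adrenomedullin and calcitonin gene-related peptide, was lower in fibroblast-like (61.6 and 38.7 CPM), endothelial-like (140 and 75.8 CPM) and macrophage-like cells (21.8 and 13.3 CPM, with an interval of the ratio, 0.367 to 1.03, that includes 1). Pth1r, the parathyroid hormone receptor, was higher in fibroblast-like cells, at 22.3 and 34.7 CPM, a ratio of 1.55. In B cell-like cells the receptor kinases Grk2 (209 and 328 CPM) and Grk6 (142 and 260 CPM) were higher.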

How the data were processed

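The 2 deposited matrices hold raw counts, in whole UMIs for each gene in each cell. Per the labels' protocols the authors aligned and demultiplexed the reads with Cell Ranger, for which no version is given in the sources used here; mm10 is the build in the submitters' processing notes. Cells with at least 1000 UMIs, 500 genes and at most 10% mitochondrial UMIs were kept, after removal of 173 and 145 cells scored as doublets. Log-normalised counts of 2000 variable genes gave 30 principal components and a 15-neighbour graph, which was partitioned with leidenalg 0.10.2 at a resolution of 1 (Python 3.11.15, scipy 1.17.1, scikit-learn 1.9.0). Clusters took the type of their highest-scoring markers, with at least 3 markers detected. Raw counts were summed per class and library. Ratios have exact binomial intervals, treat UMIs as independent and were checked on simulated counts. No test was possible, and nothing shows how many mice either library stands for. Gene positions came from GENCODE vM21 (GRCm38). The members, markers and lists were chosen with earlier results of these data known. Full values are given for members that lead a family, are 1.5-fold apart or have fewer than 3 UMIs in a library; of the other lists, genes with the largest ratios and receptors could be named. Other cell filters, clusterings, scalings, weights and thresholds were tried as alternatives.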

Additional observations from a re-analysis of the deposited data

Results flagged for a closer look

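Pde4b differed in opposite directions between clusters, each with at least 30 summed UMIs and a counting interval that leaves out 1. Its AC8 to wild-type ratio was 1.84 in the fibroblast-like cluster led by Gfpt2, Vcan and Tnxb. It was 0.525 in the one led by Gsn, Fbln1 and Mfap4, 0.498 in the one led by Clec3b, Mfap5 and Pi16, 0.65 and 0.57 in the macrophage-like clusters led by Cbr2, F13a1 and C1qa and by C1qa, C1qc and C1qb, and 0.502 in the T cell-like cluster led by Cd3e, Lef1 and Lat. Gnai2 was at 1.8 in Schwann-like cells and at 0.631 in the endothelial-like cluster led by Cdh5, Cyyr1 and Kdr. With 1 library per genotype, these differences between clusters were not tested, and they were looked for over all 35 members and 24 clusters.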

How the results depend on the processing

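No paired analysis was possible because each genotype has 1 library and the replicate numbers only follow the order of the samples, and no replicate could be left out. Of the 16 member and class pairs at least 1.5-fold apart, 4 higher and 12 lower, the direction held in all 16 under 15 of the 16 alternatives; with each cell thinned to 1000 UMIs it held in 15, with Pde7a in macrophage-like cells turning to a ratio of 1.27, and the cause was not tested. The number higher was 1 with thinning, 2 with equal cluster weights, 1 with at least 100 summed UMIs and 1 without the macrophage-like cluster led by Spp1. The number lower was 21 with at least 10 summed UMIs and 2 at a fold of 2, as those rules admit more or fewer genes. Thinned, Pde8a in macrophage-like cells came to 0.946, so it was no longer apart. Only 10 of the 16 pairs stayed 1.5-fold apart after thinning, 11 with each cell weighted equally and 12 without doublet removal. Without the Spp1 cluster 12 stayed so, and 5 of the 16 were at least 2-fold apart. Of the other pathway genes, 15 higher and 43 lower, 8 and 22 were left at 100 summed UMIs. The alternatives that left out the Spp1 cluster, left out 2 clusters with markers of another lineage (119 cells), or clustered without the 35 members (4 higher, 11 lower) were chosen after seeing the data. Leading isoforms matched in 25 of 32 cases per transcript length and in 28 to 32 under the others. Depth limits the B cell-like class most, with 7 of 35 members measured.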

Other observations

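Other receptors that act on cyclic AMP were highest in the same class of both libraries. Npy1r, a Gi-coupled receptor for neuropeptide Y, had 121 and 93.3 CPM in mural-like cells from 18 and 15 UMIs, and the next class was fibroblast-like cells with 0.690 and 1.81 CPM. Crhr2, a Gs-coupled urocortin receptor, had its 3 and 5 UMIs in mural-like cells. C5ar1, the receptor for complement C5a, had 633 and 643 CPM in macrophage-like cells against 88.4 and 87.7 CPM in monocyte-like cells, with 494 and 556 CPM in the small neutrophil-like class. Ptger4, a Gs-coupled prostaglandin E2 receptor, had 130 and 100.4 CPM in macrophage-like cells, with dendritic-like cells near at 120 and 78.2 CPM. S1pr1, a receptor for sphingosine 1-phosphate, had 526 and 614 CPM in endothelial-like cells against 257 and 276 CPM in T cell-like cells. Lpar1, for lysophosphatidic acid, had 292 and 259 CPM in Schwann-like cells from 23 and 12 UMIs, against 168 and 149 CPM in fibroblast-like cells.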
